A study of Arabidopsis thaliana with 12 samples.

Results

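The numbered replicate sets 1, 2 and 3 of Arabidopsis root arrays were compared, each set holding 1 array of every genotype in the series. The sets were formed from the replicate number in the array titles, and they take in all 12 of the 12 arrays, 4 per set. In every set the 4 arrays were ara1OX (35S:Ara1YFP in the Col-0 background), Col-0 wild type, ara1/2mut (labelled ara-1/2, in the Col-3 background) and Col-3 wild type (stock code N908). The 35S promoter of the transgene drives expression in most plant tissues, and the labels do not say whether either altered line is more than 1 line. All roots came from seedlings at 7 days of age, grown on 1% agar (0.5 strength medium) in days of 16 h light and 8 h darkness at 24 °C, once the seed had been chilled for 2 days. The series was made to find target genes of the ARABIDILLO proteins. The labels do not state what a replicate number stands for, such as a growth batch, an extraction or a hybridization. They also do not say whether the roots of a set were grown or harvested together, so the p-values measure the spread between these arrays, which may be technical.

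Genes of the heat shock response made up 4 of the 10 named genes with the smallest p across sets. This response raises the transcripts of molecular chaperones when proteins unfold. Small heat shock proteins hold unfolded proteins, HSP70 proteins refold them with DnaJ proteins as partners, HSP90 works with co-chaperones such as Hop and FKBP-type proteins, and chaperonins fold proteins inside plastids and mitochondria. In the roots of sets 2 and 3 many of these transcripts lay well below those of set 1, in every genotype.

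Expression was read as the deposited MAS5 signal, a scaled intensity, on the log2 scale. Of the 13648 probe sets that passed the filter on low signal, 7356 carried a gene name. In a limma fit with set and genotype as factors, 59 probe sets passed an adjusted p of 0.05 in set 2 against set 1 (0.432% of those tested), of which 11 were higher (0.0806%) and 48 lower (0.352%). In set 3 against set 1, 271 passed (1.99%), 113 higher (0.828%) and 158 lower (1.16%). Between set 3 and set 2 limma called 0 probe sets (0%), with 747 at an unadjusted p under 0.05 and a smallest adjusted p of 0.257. Both of the first comparisons use set 1, so they are not independent. A contrast added after these counts were seen, the mean of sets 2 and 3 minus set 1, passed for 250 probe sets (1.83%), 105 higher (0.769%) and 145 lower (1.06%). In 239 of these 250 the difference had the same sign in all 4 genotypes. The moderated F test across the sets passed for 90 probe sets (0.659%), and set 1 was the set farthest from the other sets in 77 of them, set 3 in 13 and set 2 in 0.

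**Figure D1:**
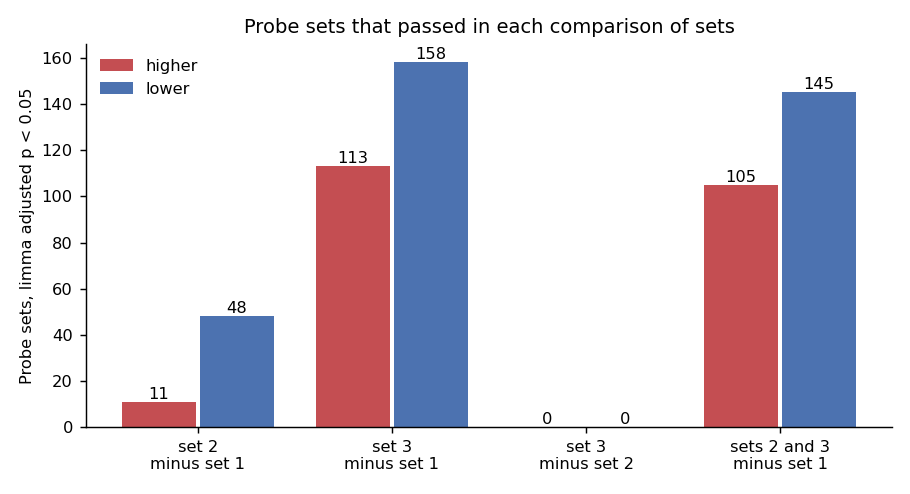
Bars give the number of probe sets that passed a limma adjusted p of 0.05 in each comparison of sets, higher in red and lower in blue. Set 3 against set 1 had 113 higher and 158 lower, and set 3 against set 2 had 0.

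These totals hung on single arrays. For set 2 against set 1 the count was 107 without the set 1 Col-0 array, but 23 without set 1 ara1OX, 21 without set 1 ara1/2mut, 23 without set 2 ara1OX, 38 without set 2 Col-3 and 18 without set 2 ara1/2mut. For set 3 against set 1 it was 748 without the set 1 Col-3 array, but 56 without set 1 ara1OX, 59 without set 1 ara1/2mut, 176 without set 2 ara1OX, 73 without set 3 ara1OX and 41 without set 3 ara1/2mut. For the mean of sets 2 and 3 against set 1 it was 537 without set 1 Col-3, 64 without set 1 ara1OX and 48 without set 1 ara1/2mut. The same count was 113 without set 2 ara1OX, 98 without set 2 ara1/2mut, 116 without set 3 ara1OX and 92 without set 3 ara1/2mut. The F test gave 186 without set 1 Col-0, 238 without set 1 Col-3, 32 without set 1 ara1OX, 29 without set 1 ara1/2mut and 56 without set 3 ara1/2mut. Set 3 against set 2 gave 2 without set 1 ara1/2mut and 1 without set 3 Col-0. Without the variance trend in the fit 36 probe sets passed in the mean contrast.

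Set membership was a modest part of the spread of a typical transcript. The median probe set had 29.1% of its within-genotype sum of squares between sets, where 25% would come from the degrees of freedom alone. For the tested genes on the heat lists the median was 76.4%, and for those on the ribosomal protein lists 43.3%. Both groups of lists were written after values were seen, so their shares are a description and not independent evidence. Counted over all 4 genotypes, 136 probe sets were highest and 141 lowest in set 2, 411 highest and 410 lowest in set 3, and 521 highest and 453 lowest in set 1. After removal of genotype means, the correlation across probe sets between arrays of the same set had a median of 0.018 in set 2, 0.154 in set 3 and 0.167 in set 1, over 6 pairs each. Probe sets are not independent replicates, and these correlations are a description.

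The arrays carried root transcripts in all sets. The mean log2 signal of 4 root hair genes lay between 7.51 and 8.13 in set 2, between 7.62 and 8.24 in set 3 and between 7.78 and 8.37 in set 1. That of 6 nuclear photosynthesis genes lay between 5.05 and 5.54 in set 2, between 4.58 and 5.95 in set 3 and between 4.59 and 5.92 in set 1. These means include LHCB4.2, which fell under the filter on low signal, so that 5 of the 6 were tested. On the lists of root hair, nuclear photosynthesis, seed storage, lateral root and cell division genes limma called 0 members in the mean of sets 2 and 3 against set 1, and 0 reached an unadjusted p under 0.05. That contrast does not compare set 3 with set 2, where limma also called 0. There AT1G30870, RCA, EXPA18 and LBD16 were higher in set 3, by 0.36, 0.52, 0.30 and 0.38 (unadjusted limma p between 0.00452 and 0.0408). Of all 13648 probe sets 747 had an unadjusted p under 0.05 there, in either direction. Of 7 array quality measures, among them spiked-in controls and 3'/5' signal ratios, none passed an exact permutation test of set labels within genotype (two-sided p between 0.222 and 0.94, adjusted p of 0.826 or more, the smallest p the design allows being 0.0046). The spiked-in hybridization controls of the set 3 ara1OX array had a mean log2 signal of 11.07, against 8.25 to 9.81 on the other arrays. With that level as a covariate 70 probe sets passed in the mean of sets 2 and 3 against set 1. The set 1 ara1/2mut array had the highest actin 3'/5' log ratio, 4.66 against 2.83 to 4.09 on the other arrays. Its GAPDH ratio was also the highest, 0.21 against -0.41 to 0.19, while its ubiquitin ratio of 1.19 was below the 1.25 of set 3 ara1OX. The actin ratio was not used as a covariate, and its bearing on the set differences was not tested. In bulk roots, fewer cells of a type and less RNA per cell cannot be told apart.

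The heat lists held 113 genes, of which 38 were named on the array and 31 had enough signal to be tested. In the mean of sets 2 and 3 against set 1, 17 of the 31 passed and were lower, against 1.06% of all probe sets, and 0 were higher (0 also at an unadjusted p under 0.05). Of the 31, 29 had a difference below 0, as did 6929 of all 13648 probe sets. In 20 it was below 0 in all 4 genotypes (11.2% of all probe sets), and the median difference was -1.03 against 0.00 for all probe sets. All 4 set 1 arrays lay above all 8 others for 15 of the 31, a pattern found in 1.25% of all probe sets. Set against set, 16 were lower in set 2 than in set 1 (0.352% of all probe sets) and 17 in set 3 than in set 1 (1.16%). Between set 3 and set 2 limma called 0, as among all probe sets. The lists were drawn up from general knowledge after chaperone genes had turned up among the smallest p-values, so their counts describe the pattern and are not independent evidence of it.

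**Figure D2:**
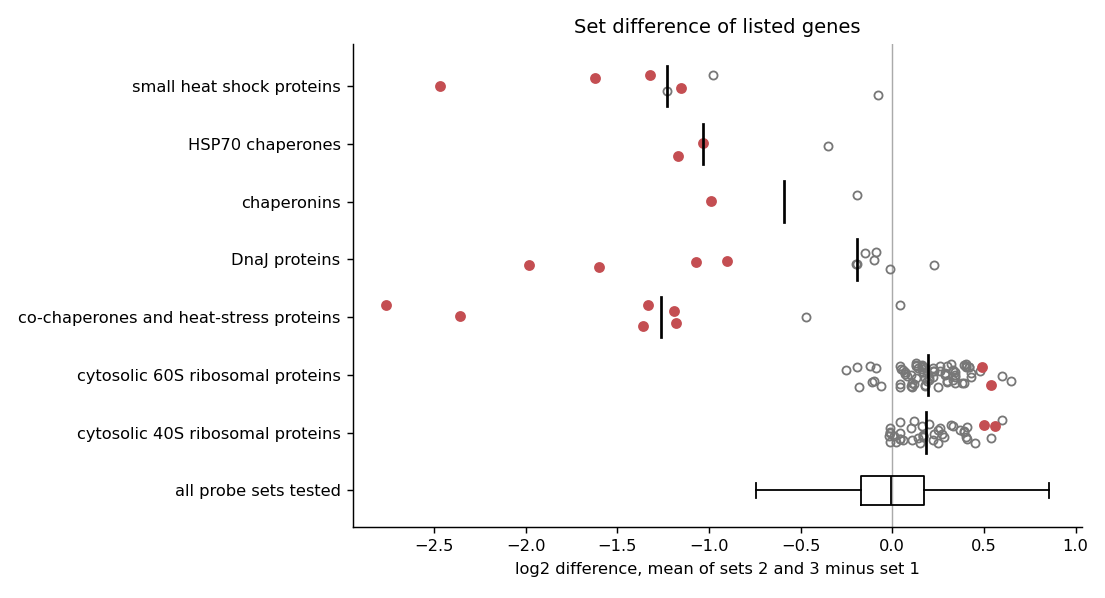
Each point is a listed probe set, placed by its log2 difference between the mean of sets 2 and 3 and set 1. Filled red points passed a limma adjusted p of 0.05, black bars are list medians, and the box at the bottom shows the quartiles and the 1st to 99th percentiles of all 13648 probe sets. The heat lists lie mostly below 0 and the ribosomal protein lists mostly just above 0.

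Of 8 co-chaperones and heat-stress proteins tested, 6 were lower. AT5G48570, the FKBP65/ROF2 immunophilin that takes part in thermotolerance, had signals of 50.4, 43.4, 96 and 55.5 in set 2 (ara1OX, Col-0, ara1/2mut and Col-3), of 39.1, 71.6, 80.4 and 50 in set 3 and of 436, 164, 1340 and 251 in set 1. Every set 1 array lay above every array of sets 2 and 3. On the log2 scale sets 2 and 3 differed from set 1 by -2.76 ± 0.27 (SE, limma adjusted p = 4.93e-05), set 1 being 6.76-fold the mean of the other sets. Hop3, a Hop co-chaperone that links HSP70 to HSP90, had signals of 82.1, 65.2, 115 and 75.7 in set 2 for the same order of genotypes, of 61.8, 103, 99.5 and 82.7 in set 3 and of 449, 250, 1010 and 306 in set 1. Its difference was -2.36 ± 0.21 (SE, limma adjusted p = 2.41e-05), again with no overlap between set 1 and the rest. The related Hop2 differed by -0.47 ± 0.14 (limma adjusted p = 0.0911) and Hop1 by 0.04 ± 0.14 (limma adjusted p = 0.921), and neither passed. Lower too were Fes1A, a nucleotide exchange partner of HSP70 (-1.36), SGT1A, an HSP90 co-chaperone (-1.33), HSA32, a protein needed to keep acquired thermotolerance (-1.19), and AT3G12050, on the same list (-1.18), with limma adjusted p between 0.000879 and 0.00491. Without the set 1 ara1/2mut array Fes1A and HSA32 no longer passed, both at a limma adjusted p of 0.0543.

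**Figure D3:**
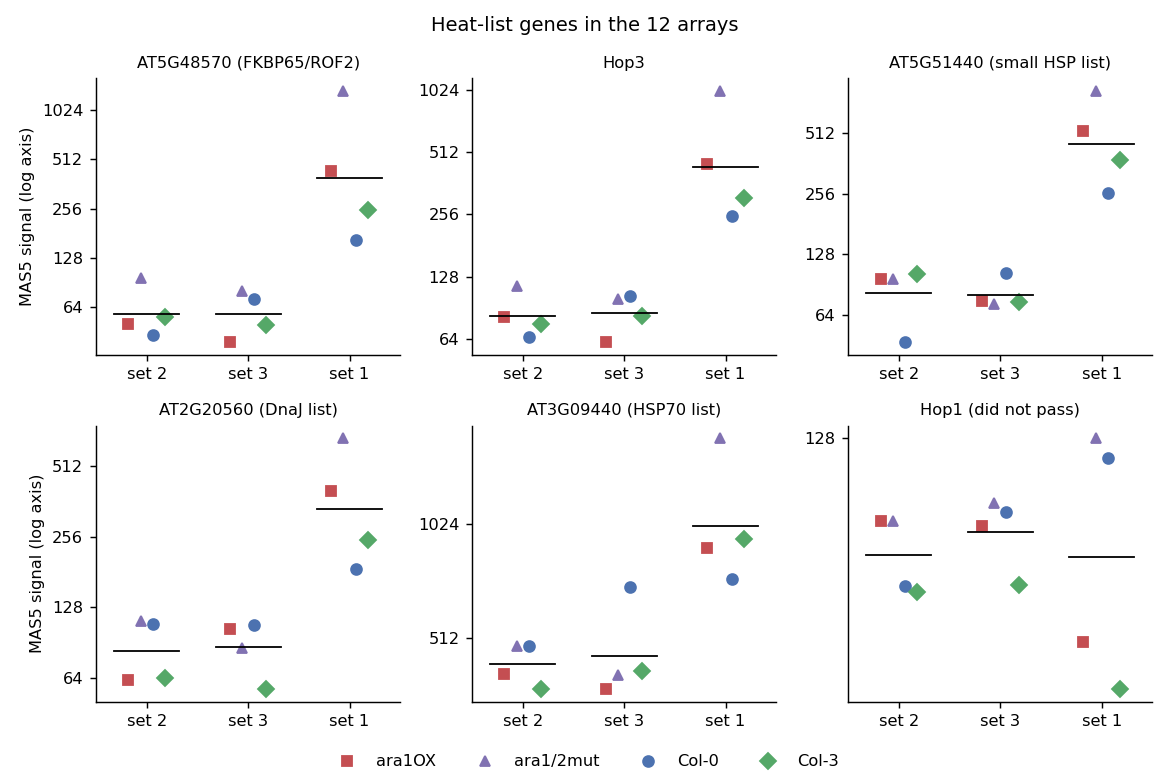
Signal of 6 heat-list genes in the 12 arrays on a log axis, by set, with a symbol per genotype and a line at the geometric mean of the 4 arrays. In the first 5 panels all set 1 arrays lie above the arrays of sets 2 and 3, and ara1/2mut is the highest set 1 array. Hop1 did not pass.

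Among small heat shock proteins 7 were tested and 4 were lower. AT5G51440 had signals of 96.5, 47.3, 97.3 and 103 in set 2 (ara1OX, Col-0, ara1/2mut and Col-3), of 75.5, 104, 73 and 74.2 in set 3 and of 522, 258, 821 and 374 in set 1. The lowest set 1 array, Col-0, was still above the highest array of the other sets. The difference was -2.47 ± 0.23 (SE, limma adjusted p = 2.84e-05), with set 1 at 5.54-fold the rest. AT2G19310 differed by -1.62, AT5G37670 by -1.32 and AT2G29500 by -1.15, with limma adjusted p of 0.000879, 0.0283 and 0.00627. AT5G37670 lost its call without the ara1OX or ara1/2mut array of set 1, or the ara1/2mut array of set 2 or set 3 (limma adjusted p up to 0.225). Most of its signals in sets 2 and 3 lay under the filter level, and with those set to it the difference was -1.08. AT1G54050, AT1G53540 and AT4G21870, at -1.23, -0.98 and -0.08, did not pass.

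HSP70 proteins and their DnaJ partners were split in the same way. AT3G09440, on the HSP70 list, had signals of 410, 486, 487 and 375 in set 2 (ara1OX, Col-0, ara1/2mut and Col-3), of 376, 695, 408 and 418 in set 3 and of 882, 732, 1720 and 935 in set 1. The Col-0 arrays of set 3 and set 1 were close, at 695 and 732. The difference was -1.17 ± 0.18 (SE, limma adjusted p = 0.00313). Hsp70-2, a cytosolic HSP70, differed by -1.03 (limma adjusted p = 0.00627, and 0.0519 without the set 1 ara1/2mut array), while AT4G16660 on the same list, at -0.35, did not pass. Cytosolic HSP70 genes are close in sequence, and whether a probe set reads only 1 of them was not tested. Of 11 DnaJ genes 4 were lower: AT2G20560 by -1.98, AT3G14200 by -1.60, AT1G56300 by -1.07 and AT4G28480 by -0.90, with limma adjusted p between 0.000307 and 0.004. AT2G20560 had signals of 57.3 to 112 in the 8 arrays of sets 2 and 3 and of 403, 187, 677 and 249 in set 1. The 3 genes of endoplasmic reticulum DnaJ proteins, ATERDJ3B, ATERDJ2A and ATERDJ2B, differed by -0.19, -0.15 and -0.01 and did not pass. Of the chaperonins, Cpn60beta2, a plastid subunit, was lower by 0.99 on the log2 scale (limma adjusted p = 0.00238), and Cpn60beta3 differed by -0.19 without passing. No gene of the HSP90 and HSP100 list or of the heat shock transcription factor list had a named probe set, and these were not analysed here. The unnamed probe sets 248332_at and 256245_at moved like these genes, at -2.37 and -2.33, with set 1 arrays above all others.

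The size of the heat difference was unequal between the genotypes. Each genotype had 1 array per set, so an effect of genotype and one of a single array cannot be told apart. The mean log2 signal of the 31 heat probe sets was 6.50, 6.31, 6.65 and 6.42 in set 2 (ara1OX, Col-0, ara1/2mut and Col-3), 6.38, 6.60, 6.44 and 6.44 in set 3 and 7.39, 7.08, 7.98 and 7.20 in set 1. Each set 1 array was above all arrays of sets 2 and 3, and ara1/2mut was the highest. The mean difference of sets 2 and 3 from set 1 was -0.95 in ara1OX, -1.44 in ara1/2mut, -0.62 in Col-0 and -0.77 in Col-3. A test of the difference between the altered lines and the wild types called 0 of the 31 in limma, though 12 had an unadjusted p under 0.05, as did 8.24% of all probe sets. On simulated data this test recovered 22% of planted log2 differences of 1 and 62% of those of 2, so real differences could be missed. Between the Col-3 and Col-0 backgrounds limma also called 0, and 5 had an unadjusted p under 0.05, as did 4.22% of all probe sets. Without the set 1 ara1/2mut array 13 heat probe sets were still called lower, and with the wild-type arrays alone 3 were. Without all 3 ara1/2mut arrays 11 were called, and without the variance trend in the fit 9 were.

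**Figure D4:**
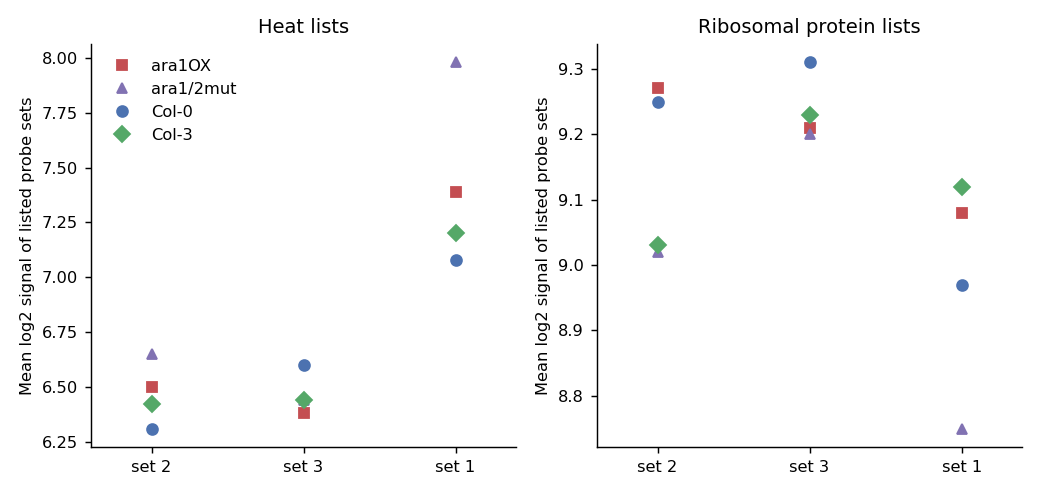
Mean log2 signal of the 31 heat-list and the 116 ribosomal protein probe sets in each array, by set, with a symbol per genotype. The heat mean is between 7.08 and 7.98 in set 1 and between 6.31 and 6.65 elsewhere. The ribosomal mean is lowest in the ara1/2mut array of set 1, at 8.75.

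Other transcripts lower in sets 2 and 3 included members of the hypoxia list, genes that respond to low oxygen. Of 8 tested, 2 were lower and 0 higher, and at an unadjusted p under 0.05 the counts were 3 lower and 2 higher. Of all probe sets 1.06% were called lower and 0.769% higher, and 8.07% were lower and 9.16% higher at an unadjusted p under 0.05. AT3G10020 had signals of 182, 206, 195 and 235 in set 2 (ara1OX, Col-0, ara1/2mut and Col-3), of 84.9, 125, 125 and 197 in set 3 and of 515, 262, 923 and 496 in set 1. Its set 1 arrays were all above the others, and the difference was -1.63 ± 0.22 (SE, limma adjusted p = 0.000879). AT1G33055 differed by -0.94 ± 0.15 (limma adjusted p = 0.00398, and 0.0519 without the set 1 ara1/2mut array), its ranges of signal overlapping between sets. PDC2, a pyruvate decarboxylase of ethanol fermentation, differed by -0.07 and did not pass. Outside the lists, AT1G14200 was lower by 1.33 on the log2 scale and AT2G41160 by 1.01 (limma adjusted p of 0.000618 and 0.000776), each with all set 1 arrays above the rest. AT3G26510 stood out by its order: signals of 231 to 316 in set 2, of 118 to 199 in set 3 and of 309 to 390 in set 1. It was lower by 1.07 on the log2 scale in set 3 than in set 1 (limma adjusted p = 0.000591), and had the smallest p between set 3 and set 2, with a difference of -0.73 ± 0.13 that did not pass (limma adjusted p = 0.257).

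Fewer transcripts were higher in sets 2 and 3 with such clear separation. AT1G52820, for which the tables used here give no further name, had signals of 72.1, 147, 60 and 104 in set 2 (ara1OX, Col-0, ara1/2mut and Col-3), of 83.5, 133, 52.8 and 167 in set 3 and of 15.7, 18.5, 6.29 and 45.5 in set 1. All set 1 arrays lay below the others, as for 0.777% of all probe sets. The difference was 2.48 ± 0.23 (SE, limma adjusted p = 3.04e-05), a fold of 5.58. The set 1 mean of this gene lay below the filter level of 22.4 in signal, which it passed only through sets 2 and 3, so its size rests on low values. With signals under that level set to it, the difference was at least 1.82 (limma adjusted p = 4.72e-05). AT5G04120 had signals of 202, 129, 88.6 and 123 in set 2 in the same order, of 316, 158, 137 and 147 in set 3 and of 131, 57.8, 30.2 and 57 in set 1. The set 1 ara1OX array overlapped the other sets, but within each genotype set 1 was the lowest, and the difference was 1.34 ± 0.15 (SE, limma adjusted p = 0.000165). AT2G44670 was higher by 0.68 ± 0.10 (SE, limma adjusted p = 0.00161), with signals of 594 to 733 in set 2, of 602 to 754 in set 3 and of 339 to 471 in set 1. AT5G38020 was higher by 0.96 ± 0.15 (SE, limma adjusted p = 0.00398), with signals of 472 to 540 in set 2, of 588 to 737 in set 3 and of 202 to 418 in set 1. The groups did not overlap for either gene. The probe set 246481_s_at, which matches several genes and is left unnamed, was higher by 1.25 ± 0.10 (SE, limma adjusted p = 9.75e-06).

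**Figure D5:**
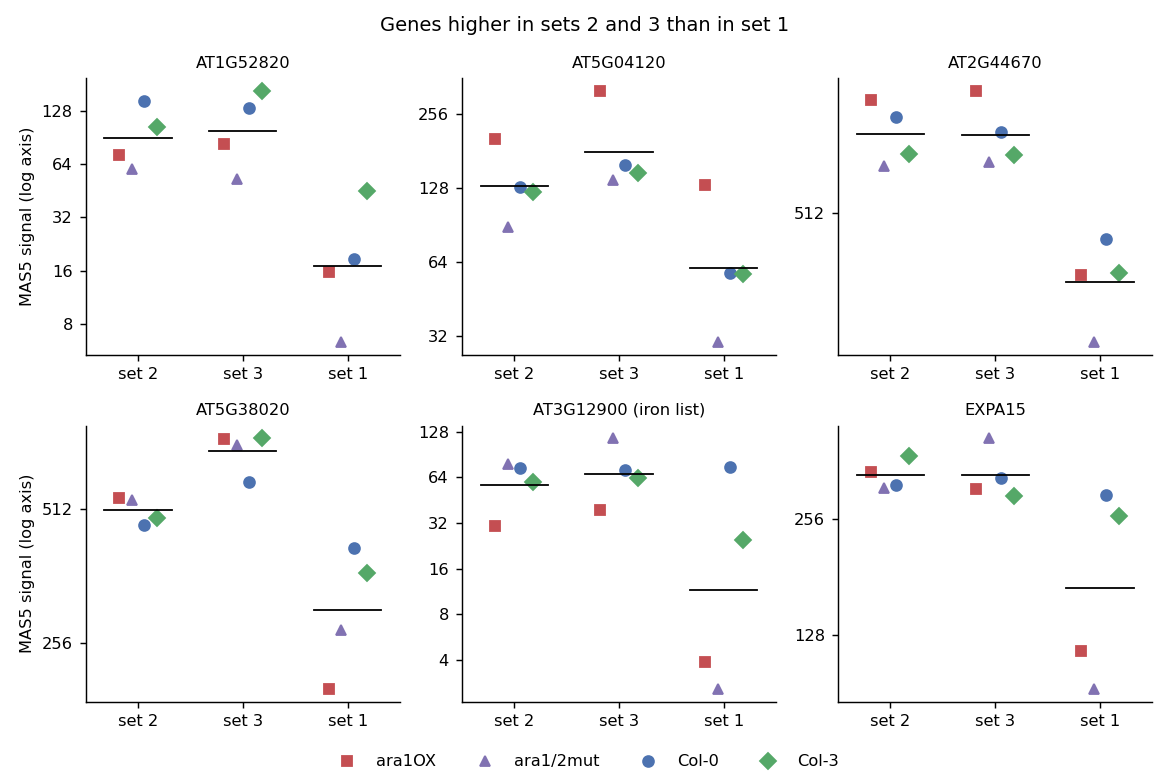
Signal of 6 genes that were higher in the mean of sets 2 and 3 than in set 1, on a log axis, by set, with a symbol per genotype and a line at the geometric mean. AT1G52820, AT2G44670 and AT5G38020 have all set 1 arrays below the rest, while the Col-0 signals of AT3G12900 and EXPA15 in set 1 lie near those of the other sets.

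A pair of the higher genes showed unequal differences between genotypes. AT3G12900, on the iron deficiency list of genes that respond to low iron, had signals of 30.6, 73.1, 78.6 and 59.4 in set 2 (ara1OX, Col-0, ara1/2mut and Col-3), of 39.1, 71.2, 116 and 63.5 in set 3 and of 3.85, 74.4, 2.56 and 24.5 in set 1. The Col-0 array of set 1 was as high as those of the other sets. Its difference was 2.42 ± 0.54 (SE, limma adjusted p = 0.0329), a call lost without the ara1OX or the ara1/2mut array of any of the sets (limma adjusted p up to 0.194). Both altered lines of set 1 were below the filter level, which the gene passed only through sets 2 and 3 and the wild types, so this size rests on low values. With signals under that level set to it, the difference was 1.00 (limma adjusted p = 0.0381). The altered lines minus wild types interaction, at 3.55 ± 0.62, did not pass (limma adjusted p = 0.05). The other 3 tested iron genes did not pass: PYE, a transcription factor of the iron response, differed by 0.48, BHLH101 by 0.44 and AT3G13610 by 0.38. EXPA15, an expansin, a protein that loosens cell walls, had signals of 340, 315, 309 and 374 in set 2, of 307, 328, 417 and 295 in set 3 and of 116, 297, 92.4 and 261 in set 1. Its differences were 1.48 in ara1OX, 1.96 in ara1/2mut, 0.11 in Col-0 and 0.35 in Col-3, with a mean of 0.97 (limma adjusted p = 0.0368). This call was lost without the ara1OX or the ara1/2mut array of any of the sets or without set 2 Col-3 (limma adjusted p up to 0.259). Its altered lines differed from its wild types in this by 1.49 ± 0.25 (SE, limma adjusted p = 0.041 for the interaction, which passed for 0.0513% of all probe sets). EXPA15 was the only one called of 11 expansins tested, against 1.83% of all probe sets.

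Cytosolic ribosomal protein genes, whose products build the 60S and 40S subunits, leaned the other way from the heat genes. Of 224 listed, 130 had a named probe set and 116 were tested. In the mean of sets 2 and 3 against set 1, 103 of the 116 lay above 0, with a median of 0.19. Of all 13648 probe sets 6719 lay above 0. In 37 of the 116 the difference was above 0 in all 4 genotypes, against 10.4% of all probe sets. The lean was not seen in both sets for Col-3. Its mean log2 signal over the 116 was 9.03 in set 2, 9.23 in set 3 and 9.12 in set 1. In the other genotypes set 1 had the lowest mean. After adjustment 4 passed as higher, against 0.769% of all probe sets, and 0 as lower. At an unadjusted p under 0.05, 47 were higher and 0 lower, against 9.16% and 8.07% of all probe sets. In set 3 against set 1, 9 were higher, against 0.828% of all probe sets, and in set 2 against set 1 limma called 0. The ribosomal lists were written after values were seen, so these counts describe the pattern and are not independent evidence of it. AT2G27710 had signals of 1280, 1000, 1030 and 1010 in set 2 (ara1OX, Col-0, ara1/2mut and Col-3), of 1490, 1280, 1360 and 1100 in set 3 and of 860, 932, 616 and 904 in set 1. All set 1 arrays lay below the others, and set 3 was higher than set 1 by 0.67 ± 0.13 (SE, limma adjusted p = 0.019, and up to 0.124 without the ara1OX or ara1/2mut array of either set). PGY1, a 60S subunit protein also known for a role in leaf form, was higher in set 3 than in set 1 by 0.52 ± 0.12 (limma adjusted p = 0.0414), with signals of 716 to 843 in set 2, of 924 to 1110 in set 3 and of 599 to 798 in set 1. PGY1 lost its call in 8 of the 12 fits that left out 1 array (limma adjusted p up to 0.185), keeping it without set 1 Col-3 or without set 2 Col-0, ara1/2mut or Col-3. The count of 9 fell to 0 without the ara1OX or the ara1/2mut array of set 1 or of set 3. It was 1 without set 3 Col-0, 3 without set 1 Col-0 or set 2 ara1OX, 5 without set 2 ara1/2mut or set 3 Col-3, and 23 without set 1 Col-3. The median stayed between 0.15 and 0.28 in all 29 alternatives, quantile normalization (0.17) and median centring (0.18) among them.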

How the data were processed

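Roots were hybridized to Affymetrix ATH1 arrays. The deposited values are intensities from MAS5, as the submitters' processing notes say; its version is not given in the sources. Every array had a trimmed mean of 100 after leaving out 2% at each end, so a common shift of all transcripts would be hidden. Of 22810 probe sets, 64 controls were left out, and those with a mean log2 signal under the 40th percentile (4.49, a signal of 22.4) were removed. Set and genotype entered one linear model in limma 3.58.1 (R 4.3.3) with a variance trend, with 6 residual degrees of freedom and 9.94 prior ones. All tests were two-sided, with Benjamini-Hochberg adjustment over 13648 probe sets (over 7 measures for array quality), and the limma set contrasts, F test and altered-line interaction were tested on simulated data. Precision is limited by how few arrays there are. The platform's gene table gave 1 gene for 13513 probe sets and several for 503. Symbols came from assembly TAIR10.1 for 13436. The ARABIDILLO genes had no named probe set and are not analysed here. The comparison of sets, the lists and the mean contrast were chosen with earlier results of these data known, and the 7 heat and 2 ribosome lists were written after values were seen. CYS1, a cystatin first listed by mistake, was then dropped from the heat lists. Named genes were, per comparison, up to 8 per direction with the smallest p among those called with 1 sign in all genotypes, filled to 5 where fewer than 5 passed, the 10 with the smallest p across sets and up to 4 per list. Other named genes and the unnamed probe sets were chosen after their values were seen. The alternatives were other normalizations, filters, a pseudocount, variance settings, covariates and subsets of arrays.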

Additional observations from a re-analysis of the deposited data

Results flagged for a closer look

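The difference between the mean of sets 2 and 3 and set 1 was itself unequal between the altered lines and the wild types for 7 probe sets by limma's interaction term. EXPA15 was the 1 with a name, at 1.49 on the log2 scale. The unnamed probe sets 248978_at, 250983_at, 253502_at, 254550_at and 257689_at had larger differences in the altered lines, by 1.44, 1.92, 3.36, 2.61 and 3.65. The sixth unnamed probe set, 265033_at, had an interaction of -1.71. The adjusted p of the 7 lay between 0.00724 and 0.041.

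In 168 sets of 4 arrays, 13 had 1 array far from the rest by Dixon's ratio of its gap to the range. About 1 in 20, or 8.4, would be so by chance if the 4 arrays were replicates of a condition. They are instead 4 genotypes, and genotype means were not removed, so that rate is only a rough guide. Whether a far array differs by genotype was not tested. In set 2 these were AT5G51440 (Col-0, ratio 0.912), AT2G29500 (Col-0, 0.857), PR-1-LIKE (ara1OX, 0.885), AT5G52650 (ara1OX, 1.000), AT2G27710 (ara1OX, 0.886), AT5G15520 (Col-3, 0.838) and the hybridization controls (ara1/2mut, 0.911). In set 3 they were AT5G04120 (ara1OX, 0.833), AT5G51440 (Col-0, 0.902), AT5G38020 (Col-0, 0.848) and AT3G10610 (ara1/2mut, 0.871). In set 1 they were AT3G10610 (ara1/2mut, 0.833) and the percent of signal held by the brightest probe sets (ara1/2mut, 0.924).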

How the results depend on the processing

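The number of arrays limits all of these counts, and the cause of their movement was not tested. All 40 genes followed for the mean of sets 2 and 3 against set 1, each called there, kept their direction in every alternative giving a value. They were chosen as called on these arrays, so a kept direction was largely fixed in advance. Fewer stayed called: 5 with the wild-type arrays alone, 16 without the variance trend and 17 without ara1/2mut. The number was 21 without the set 1 ara1/2mut array and 38 with quantile normalization, and with no filter all 40 stayed called. None of the genes followed for the other comparisons reversed, and these too were picked from the same arrays. Listed genes that did not pass were not followed singly, and some changed sign. With the wild-type arrays alone 1 of the 4 iron genes lay below 0, against 0 in the main fit. With the altered lines alone 4 of the 31 heat probe sets lay above 0, against 2. The main fit pairs the sets by genotype through its genotype term. Counts are given in the order across sets (F), set 2 against set 1, set 3 against set 1, the mean of sets 2 and 3 against set 1, heat probe sets lower, and ribosomal probe sets higher in set 3 than in set 1, for which the main values were 90, 59, 271, 250, 17 and 9. Only counts that moved by over 1.5 times are given. Quantile normalization left 4 ribosomal calls. Median centring gave 172 for set 3 against set 1, 157 for the mean contrast and 1 ribosomal call. No filter left 4 ribosomal calls, the 60th percentile filter 17 and a pseudocount of 16 gave 15. Signals floored at the filter level, a setting chosen after seeing the data, gave 181 across sets, 424 for set 3 against set 1 and 16 ribosomal calls. Without the variance trend the counts were 9, 10, 14, 36, 9 and 0. Without a genotype term they were 39 for set 2 against set 1, 151 for set 3 against set 1, 144 for the mean contrast and 4 ribosomal. With a covariate for the spike-in level they were 25, 38, 26 and 70, with 0 ribosomal. With the GAPDH ratio as a covariate they were 246 across sets, 154 for set 2 against set 1, 462 for the mean contrast and 17 ribosomal. Wild-type arrays alone gave 4, 3, 3, 9, 3 and 0, and altered lines alone 344, 165, 563 and 517, with 1 for set 3 against set 2. Without the Col-0 arrays the counts were 162 across sets, 94 for set 2 against set 1, 3 for set 3 against set 2 and 1 ribosomal. Without ara1OX they were 26, 20, 32, 58 and 0 ribosomal, without ara1/2mut 23, 19, 29, 37, 11 heat and 0 ribosomal, and without Col-3 there were 16 ribosomal. Leaving out 1 array at a time gave 29 to 238 across sets, 18 to 107, 41 to 748, 48 to 537, 13 to 18 heat and 0 to 23 ribosomal, and 0 to 2 for set 3 against set 2.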

Other observations

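A few single genes on detoxification, defence and plastid lists were also called. GSTU26, a glutathione transferase, was higher in the mean of sets 2 and 3 than in set 1 by 0.56 ± 0.12 (SE, limma adjusted p = 0.0303), with signals of 590 to 795 in set 2, of 606 to 896 in set 3 and of 342 to 710 in set 1. Its neighbour in the family, GSTU25, was higher in set 3 than in set 1 by 1.04 (limma adjusted p = 0.0165), and no other of the 11 glutathione transferases tested was called in either comparison, in which 1.83% and 1.99% of all probe sets were. PR-1-LIKE, of the pathogenesis-related protein family, was higher in set 3 than in set 1 by 0.92 (limma adjusted p = 0.00743), with signals of 228 to 255 in set 3 and of 100 to 174 in set 1 that did not overlap. It was the 1 called there of 3 tested on its list, against 1.99% of all probe sets. UGT73B1, a UDP-glycosyltransferase, differed by -0.77 in the mean of sets 2 and 3 (limma adjusted p = 0.0196). It was the 1 called of 21 UDP-glycosyltransferases tested, against 1.83% of all probe sets, and 12 of the 21 lay above 0. The plastid gene psaJ, for a small photosystem I subunit, was higher by 1.28 (limma adjusted p = 0.0329) and was the 1 called of 49 plastid genes, a share near the 1.83% of all probe sets. GI, a clock gene whose transcript cycles through the day, differed by -0.95 (limma adjusted p = 0.0471), with signals of 161, 151, 124 and 131 in set 2 (ara1OX, Col-0, ara1/2mut and Col-3), of 128, 236, 118 and 160 in set 3 and of 264, 220, 555 and 202 in set 1. Of the 2 clock genes tested, the other, AT5G52660, differed by 0.20 and did not pass. Leaving out 1 array ended the call of the mean contrast for GSTU26 in 6, for psaJ in 5, for UGT73B1 in 4 and for GI in 9 of 12 fits, with limma adjusted p up to 0.224, 0.247, 0.185 and 0.271. Each of these arrays alone ended the call: for GSTU26 the Col-0 and ara1/2mut arrays of sets 1 and 2 and both altered lines of set 3, for psaJ the altered lines of sets 1 and 3 and ara1OX of set 2, and for UGT73B1 the altered lines of set 1 and ara1/2mut of sets 2 and 3. For GI they were all but the set 1 wild types and set 3 Col-0. GSTU25 lost its set 3 call without the altered lines of set 1 or set 3 (limma adjusted p up to 0.113). The set 3 call of PR-1-LIKE ended without the set 3 ara1/2mut array (limma adjusted p = 0.0541).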
